A study of Xenopus laevis with 64 samples.

Results

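Hindlimbs of Xenopus laevis tadpoles that had spent 96 h in propylthiouracil (PTU) were compared with hindlimbs of control tadpoles of the same time and experiment. The arrays were chosen by their titles: 3 arrays of hindlimb with PTU at 20 mg/L and 3 arrays of control hindlimb, 6 of the 64 arrays of the series. Exposure began at Nieuwkoop and Faber (NF) stage 54 in both groups. The control group is given in the labels without an agent or dose, and the sources used here do not say what its water held. Each array carried RNA amplified from 1 µg of total RNA of a single animal and labelled with P32, per the labels. The submitters describe 24 tanks of 20 tadpoles, 6 tanks for each chemical, and at each time 10 tadpoles of a treatment taken from 2 of its tanks. The sources used here do not tie the animals to tanks, so the p-values measure only the spread between animals. In the main fit that spread was pooled over all 38 hindlimb arrays of the series, including those outside this comparison. A set of 6 hindlimb arrays taken at 24 h (3 with PTU, 3 controls), and 3 arrays each with methimazole (MMI, 100 mg/L) and perchlorate (PER, 4 mg/L) at 96 h, are used below to place the values.

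PTU is a thionamide that blocks thyroid peroxidase, the enzyme that attaches iodine to thyroglobulin in the making of thyroid hormone. Hormone already stored in the gland can still be released, so a fall in circulating hormone follows the block with a delay. In the tadpole the hindlimb is an organ that grows and differentiates as thyroid hormone rises at metamorphosis, through receptors that act with retinoid X receptors on target genes. The comparison addresses which transcripts of the growing limb differ after this exposure.

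The array carries 812 cDNA spots in 406 neighbouring duplicate pairs, 237 of which have a gene symbol here. Endings L and S of a symbol mark the long and short subgenomes, and a pair with no symbol is given by its number. The deposited values are intensities with background already subtracted, so many lie below 0. A pair was taken as above background on an array where its mean exceeded 2 SD of that array's noise.

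On every one of the 6 arrays, 100% of the values were whole multiples of 1 number, within a tolerance of 0.01, which recovers the factor by which the array had been multiplied before deposit. The factors were 1.37, 1 and 1.64 on PTU arrays 1, 2 and 3, against 2.43, 3.44 and 1.85 on control arrays 1, 2 and 3. All 3 controls had thus been scaled up more than any PTU array, and control 2 more than any other of the 38 hindlimb arrays, whose factors outside the 96 h controls ran from 1 to 2.38. The PTU arrays held 59, 69 and 56 pairs above background, against 39, 22 and 35 on the controls. Control 2 held the fewest of the 38 hindlimb arrays, whose range was 22 to 73. The 16 pairs above background on all 6 arrays had a median of 12096.5, 19374 and 10190 in unscaled scanner units on the PTU arrays, against 5044, 8736 and 11547 on the controls. Scaling and detection thus moved with the groups, and their part in the differences below was not tested.

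Over the tested pairs, the 3 PTU arrays resembled one another more closely than the 3 controls did. Over the 46 tested pairs with a value on all 6 arrays, normalised log2 values correlated with r between 0.902 and 0.935 among the PTU arrays. Controls 1 and 2 correlated with r = 0.882, while control 3 correlated with them at only 0.761 and 0.746. Control 3 stood nearer to the PTU arrays, with r between 0.835 and 0.880, whereas controls 1 and 2 lay between 0.706 and 0.797 from them. These correlations are across pairs on the same arrays, whose pairs are not independent replicates. The pairs were also chosen by detection: 40 tested pairs were above background on all 3 PTU arrays, and 16 on all 3 controls. Many control values were thus at background, so the correlations cannot tell whether the control animals were less alike. Controls 2 and 3 thus stand apart in different ways, and the called pairs are given with and without each.

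**Figure D1:**
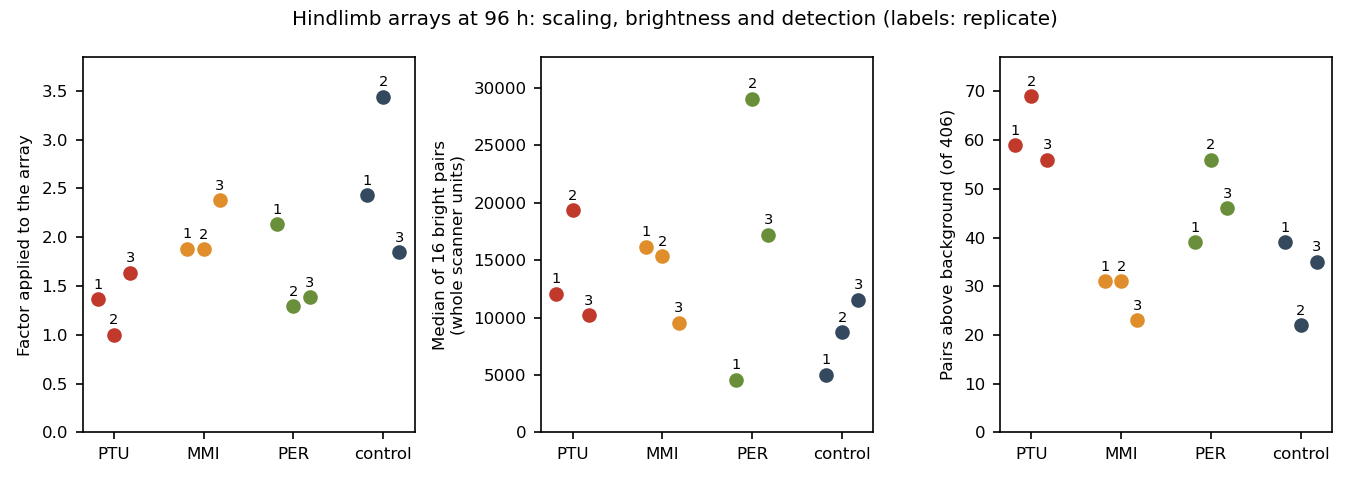
Each point is 1 hindlimb array at 96 h, labelled with its replicate number, for PTU, MMI, PER and control. The panels show the factor applied to the array (left), the median of the 16 bright pairs in whole scanner units (middle) and the number of pairs above background of 406 (right). The 3 controls have factors of 1.85 to 3.44, against 1 to 1.64 with PTU, and 22 to 39 pairs above background, against 56 to 69 with PTU.

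For the comparison, intensities were corrected with normexp, put on the log2 scale, quantile normalized over the 38 hindlimb arrays and averaged over duplicate spots, so values below are normalised log2 intensities unless another scale is named. A difference of 1 on this scale is a 2-fold change. For dim pairs its size depends on how the background is corrected. A pair was tested where at least 3 of the 6 arrays were above background, which left 47 of 406 pairs (28 with a symbol, from 24 genes). The fit used limma with 1 coefficient for each of the 12 hindlimb groups, and p-values were adjusted by the Benjamini-Hochberg method over the 47 pairs.

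In PTU hindlimbs 4 of 47 tested pairs (8.51%) were higher than in controls at an adjusted p under 0.05, and 0 were lower. They were tuba1 (an alpha-tubulin, the subunit from which microtubules are built), pou2f1.S (Oct-1, a POU-domain transcription factor that binds octamer motifs), and pairs 88 and 260, which have no gene symbol here. At an unadjusted p under 0.05 there were 10 pairs. The median difference of all 47 was 0.21, and 28 of them lay above 0. The filter favoured pairs bright with PTU: 40 of the 47 were above background on all 3 PTU arrays, and 16 on all 3 controls. This median is thus no sign of a general rise, and without a filter on dim pairs it was -0.059 over 401 pairs. With median centring in place of quantile normalization 7 pairs were higher and 1 lower (ldhb.S), and with arrays centred on their bright pairs 4 were higher and 1 lower (ldhb.S). The count was 1 (pou2f1.S) with quantile normalization over the 96 h arrays and 1 (pou2f1.S) in a fit of only the 6 arrays, and 0 on the deposited scale, with array weights or without a filter on dim pairs.

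The count depended on single arrays. Without control 2 it was 0 of 47 in the same limma fit, with 5 pairs at an unadjusted p under 0.05 and a median difference of 0.13. Without control 3 it was 9 of 42, which included all 4 pairs and added nkx2-2.S, hmgn3.L, tpm4.S, des.1.S and pair 124. Without control 1 it was 3 of 43, with pou2f1.S lost. It was 0 of 36, 0 of 36 and 0 of 39 without PTU arrays 1, 2 and 3, with 5, 5 and 6 pairs at an unadjusted p under 0.05. Pairs that no control measured above background cannot be tested once a PTU array is left out, since only 2 arrays then measure them. A design of 3 against 3 could not go below p = 0.1 in a two-sided exact permutation test of a single pair.

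Groups did not overlap, with all 3 PTU values above all 3 control values, in 7 of the 46 complete tested pairs (15.2%): the 4 named, pcna.S, and pairs 70 and 124. All 3 PTU values lay below all 3 controls in 2 of 46 (4.35%), ldhb.S and nme2.L. Over the 47 pairs the controls spread more widely: the median SD was 0.23 with PTU and 0.51 in controls, and the control SD was the larger in 37. For the 16 pairs above background on all 6 arrays the median SDs were close, at 0.23 with PTU and 0.26 in controls. The control SD was the larger in 10 of these 16. For the 30 pairs at background on control 2 the median SDs were 0.22 with PTU and 0.78 in controls. Control 2 was the lowest control in 28 pairs. Control 3 was the highest in 20 of 46, control 1 in 16 and control 2 in 10.

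**Figure D2:**
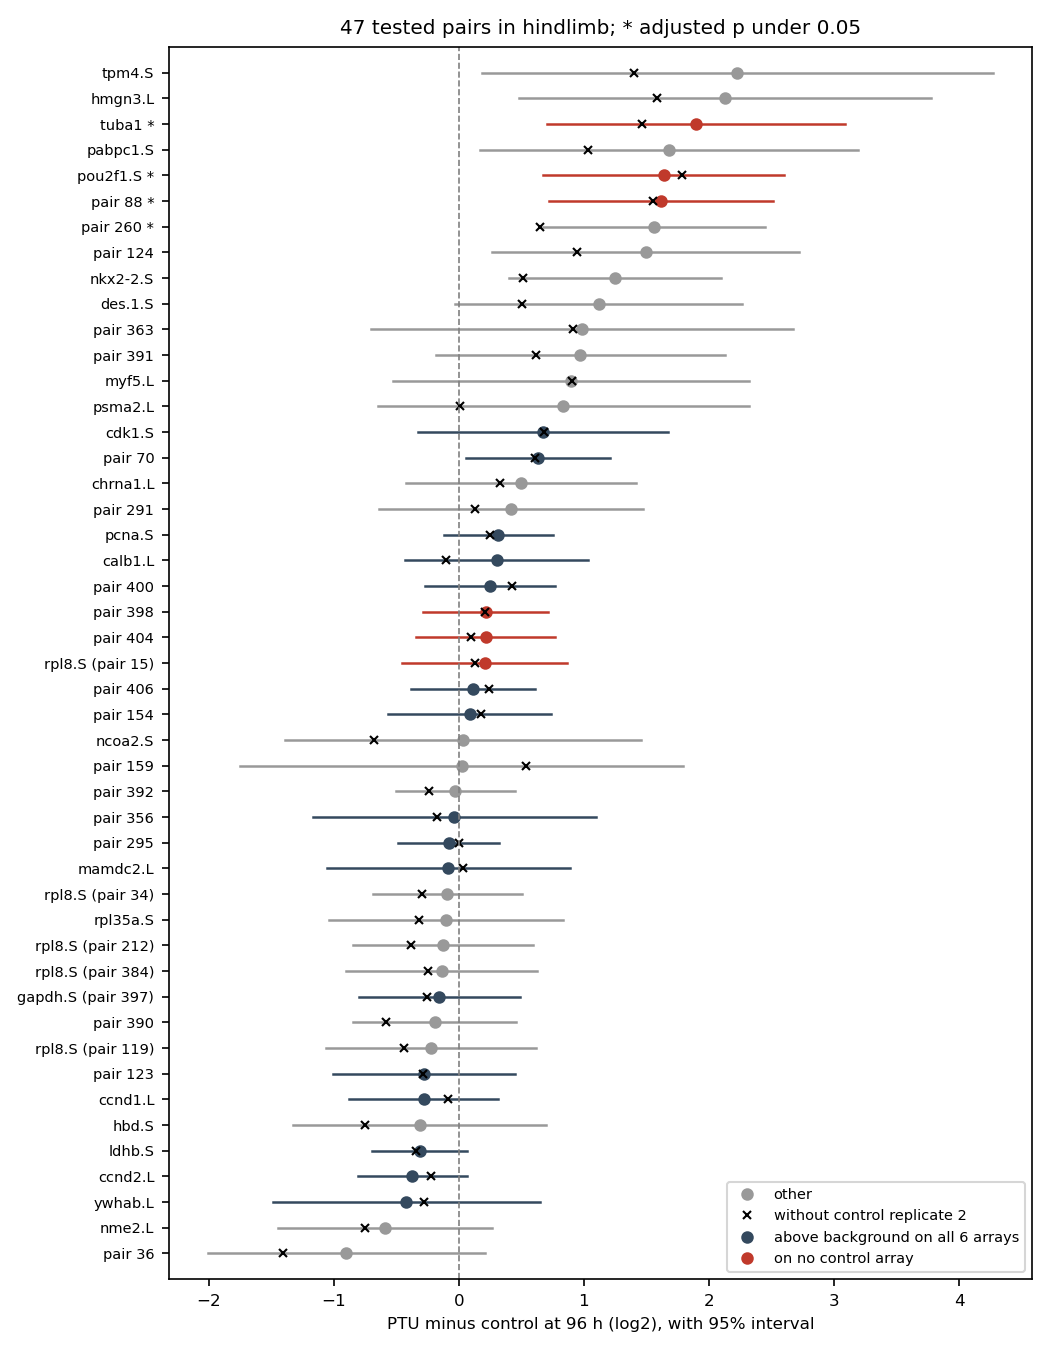
Each row is 1 of the 47 tested pairs, with its PTU minus control difference at 96 h (log2, circle), the 95% interval (line) and the difference without control 2 (cross). Colour separates 16 pairs above background on all 6 arrays, 6 pairs on no control array, and the other pairs. The 16 pairs measured everywhere lie between -0.42 and 0.67, and a star marks the 4 called pairs.

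For 16 pairs above background on all 6 arrays, 0 were called, differences ran from -0.42 to 0.67 around a median of -0.06, and 9 had a 95% interval that lay within a 2-fold change either way. Their median interval reached 0.62 to each side, a 1.53-fold change. The called pairs 88, tuba1 and pou2f1.S were above background on every PTU array and on no control array. Such pairs, 6 in all, entered the test through the PTU arrays alone and were thereby selected for higher PTU values, so a count of calls among them is no support. Without the filter on dim pairs the limma fit called 0 of 401 pairs, with 33 at an unadjusted p under 0.05. No pair of the 406 showed the reverse pattern, and 87 pairs were above background on at least 1 PTU array, against 55 on at least 1 control.

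Pair 88 separated the groups on every array. Its deposited intensities were 5712, 4440 and 7130 in PTU hindlimbs, against 823, 900 and 1247 in controls, all 3 controls at background. On the normalised scale it read 12.52, 11.58 and 12.66 with PTU, against 10.75, 10.45 and 10.70 in controls. The lowest PTU value exceeded the highest control by more than the control means of duplicate spots differed among themselves. Those means hide disagreement at background: on control 2 the spots of pair 88 read -440 and 2240, a gap of 1.26 after normalisation. On control 3 only 1 spot had a value. The difference was 1.62 (SE 0.44, adjusted p = 0.0259, limma). Set against a detection bound for the controls, the PTU mean was 1.79-fold higher, or 0.84 in log2. This bound is the mean, over the control arrays, of the dimmest signal above background or the pair's own value, whichever was higher. It allows for control values at background but not for the spread between animals. The 95% interval of the difference started lower, at 0.72, and at 0.53 without control 2. Without control 2 the difference was 1.55 with adjusted p = 0.104, and without control 3 it was 1.65 with adjusted p = 0.0212. It was also the 1 tested pair (2.13% of 47) to pass the submitters' rule of a 2-fold change with limited spread between spots, read on the log2 scale.

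The tuba1 transcript was higher in each PTU hindlimb than in any control. Intensities were 4021, 6566 and 6124 with PTU, against 864, -1208 and 1256 in controls, of which none was above background. Normalised values were 11.95, 12.39 and 12.19 with PTU, against 10.78, 9.38 and 10.69 in controls. Control 2 lay lowest, and its duplicate spots for tuba1 disagreed, at -3654 and 1239. The difference was 1.89 (SE 0.58, adjusted p = 0.0336, limma). The PTU mean was 1.70-fold above the same kind of detection bound, or 0.76 in log2, which again leaves out the spread between animals. The 95% interval of the difference started at 0.70, and at 0.16 without control 2. The difference of tuba1 was 1.47 without control 2 (adjusted p = 0.348) and 2.10 without control 3 (adjusted p = 0.0212).

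Of the tubulin and chaperonin list, tuba1 was the 1 of 3 members that could be tested. The beta-tubulin tubb4b.L read 698, 4247 and 3608 in intensity with PTU, against -148, 1104 and 988 in controls. PTU arrays 2 and 3 were thus above every control for it, and PTU array 1 was not. The chaperonin subunit cct3.S, part of the complex that folds tubulin and actin, read 699, -118 and 2095 with PTU, against -403, 575 and 0 in controls, with overlap.

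The transcription factor list had 12 pairs, 2 of them tested. Intensities of pou2f1.S were 1399, 3079 and 3354 with PTU, against -391, -217 and -1495 in controls. Normalised values were 11.08, 11.35 and 11.29 with PTU, against 9.52, 9.89 and 9.40 in controls. All PTU values lay above all controls, and PTU array 1 lay just above its detection limit of 1377. The difference was 1.64 (SE 0.47, adjusted p = 0.0259, limma).

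No detection bound can be set on the change of pou2f1.S, because its mean of 11.24 with PTU lies below 11.41, the mean of the dimmest signals above background on the control arrays. Its duplicate spots also disagreed: they read 4854 and 1304 on PTU array 2, 1006 and 5702 on PTU array 3, and 1931 and -4920 on control 3. The gap between its spots ranked 3rd largest of the 47 pairs in both groups. The difference was 1.78 without control 2 (adjusted p = 0.104), 1.61 without control 1 (adjusted p = 0.064) and 1.54 without control 3 (adjusted p = 0.0351). With a floor at 1 noise SD in place of normexp it was 0.83, with adjusted p = 0.146.

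The homeobox factor nkx2-2.S, known from the ventral neural tube and the pancreas, fell just outside the threshold in the fit of all hindlimb arrays. It read 13.35, 13.48 and 13.41 with PTU, against 12.21, 10.66 and 13.63 in controls. The PTU animals were nearly alike, and control 3 exceeded all of them while control 2 was far below. On control 1 the duplicate spots of nkx2-2.S disagreed, at intensities of 913 and 7698. The difference was 1.25 (SE 0.41, adjusted p = 0.0501, limma). It was 0.51 without control 2 (adjusted p = 0.567) and 1.98 without control 3 (adjusted p = 0.000275). Its SD was 1.49 in controls, against 0.07 with PTU. In a limma fit of only the arrays compared the adjusted p was 0.47, and with quantile normalization over the 96 h arrays it was 0.351. The pair passed the threshold in 7 of the 25 alternatives run.

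Pair 260 was a bright pair that differed mainly through controls 1 and 2. Intensities were 14743, 21644 and 16357 with PTU, against 5976, 1734 and 17262 in controls. After normalisation the values were 14.05, 14.48 and 14.09 with PTU, against 13.22, 10.86 and 13.87 in controls, so the groups no longer overlapped. The difference was 1.56 (SE 0.43, adjusted p = 0.0259, limma). Without control 2 it was 0.65 (adjusted p = 0.433), less than the margin of a 2-fold change, and without control 3 it was 2.18 (adjusted p = 0.000343). Without PTU arrays 1, 2 and 3 the adjusted p was 0.0867, 0.252 and 0.0741.

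**Figure D3:**
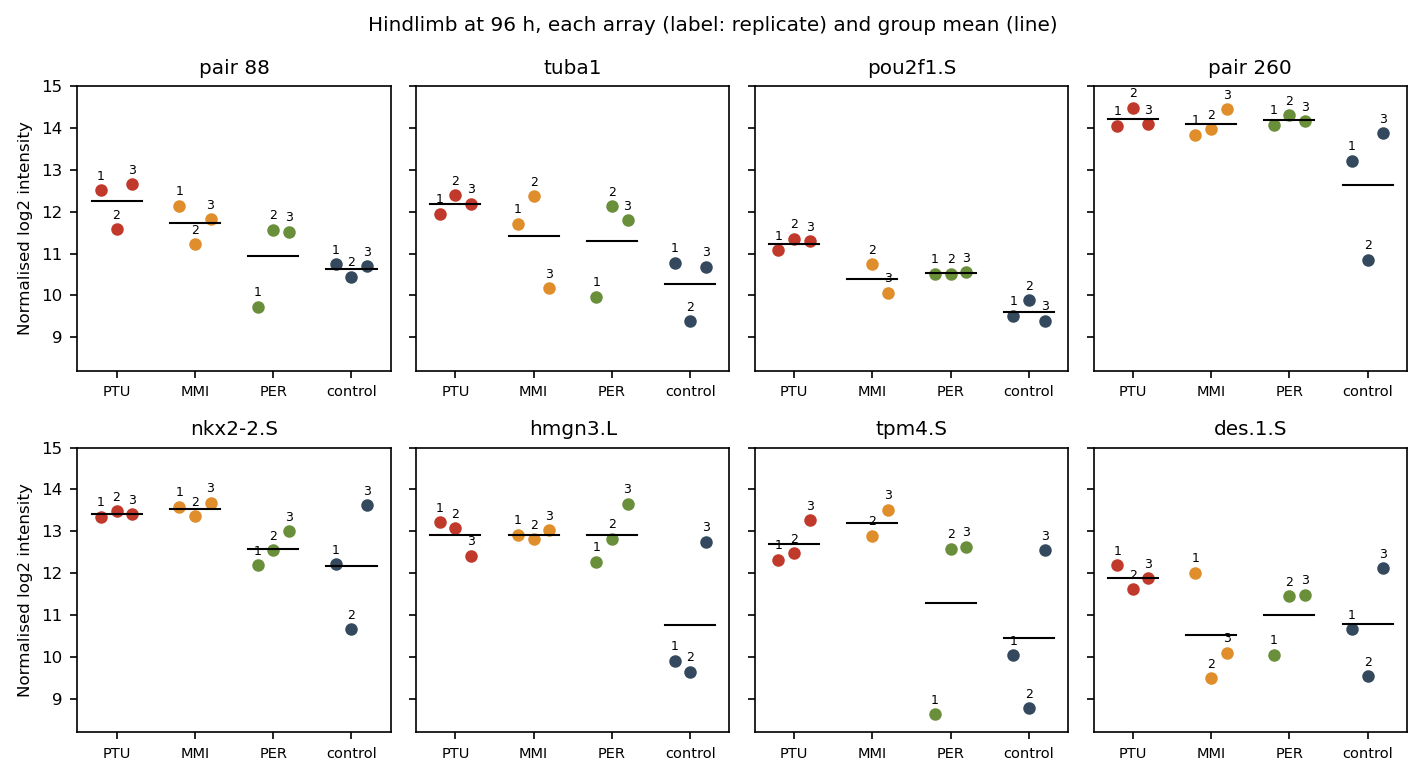
Normalised log2 intensity of 8 pairs on each hindlimb array at 96 h, with the group mean as a line and the replicate number as a label. PTU stands at the left and control at the right of each panel, with MMI and PER between them. Replicate 1 of MMI has no value for pou2f1.S and tpm4.S. In nkx2-2.S, hmgn3.L, tpm4.S and des.1.S control 3 lies within or above the range of the PTU values, while controls 1 and 2 lie below it.

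The tested transcripts of the muscle list followed this split of the controls. Of 4 pairs on the muscle list 3 were tested, 0 were called, and their median difference was 1.12, against 0.21 over all tested pairs. Tropomyosin tpm4.S, which binds along actin filaments, read 12.32, 12.47 and 13.27 with PTU, against 10.05, 8.78 and 12.56 in controls. Its difference was 2.23 (SE 1.00, adjusted p = 0.159, limma), and 1.40 without control 2.

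The muscle intermediate filament desmin (des.1.S) read 12.19, 11.62 and 11.88 with PTU, against 10.66, 9.54 and 12.13 in controls. Its difference was 1.12 (SE 0.56, adjusted p = 0.241, limma), and 0.51 without control 2. The myogenic factor myf5.L read 11.07, 11.95 and 12.48 with PTU, against 10.45 and 11.43 in controls 1 and 3, with no value on control 2, and differed by 0.89 (adjusted p = 0.513, limma). For each of these 3 genes control 3 lay within the range of the PTU values, and the other controls, where they had a value, were at background.

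Counted over the 4 muscle pairs, 3 were above background on each PTU array, against 0, 0 and 3 on controls 1, 2 and 3. Summed positive intensity of these 4 pairs was 11773, 17720 and 21394 with PTU, against 1350, 3330 and 19921 in controls. Of the 4, tpm4.S alone read 5303, 7247 and 9897 with PTU, against 80, -2439 and 8888 in controls. Whether tpm4.S marks muscle in these limbs was not tested. Without control 3, tpm4.S differed by 3.27 (adjusted p = 0.0212) and des.1.S by 1.79 (adjusted p = 0.0212). The signal of this list thus moved with control 3, and its part in the other differences was not tested. In whole limbs, fewer cells of a type and less RNA per cell cannot be told apart.

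The nucleosome-binding protein hmgn3.L showed the same arrangement. In humans this protein was found as an interactor of the thyroid hormone receptor, and the array's own name for it is Trip7. It read 13.22, 13.07 and 12.42 with PTU, against 9.92, 9.65 and 12.75 in controls. The difference was 2.13 (SE 0.80, adjusted p = 0.103, limma). It was 1.59 without control 2 (adjusted p = 0.501) and 3.12 without control 3 (adjusted p = 0.00874). Together with tpm4.S, des.1.S, myf5.L and pair 391, it made up the 5 tested pairs above background on all PTU arrays and, of the controls, on replicate 3 alone. A further 7 tested pairs were above background on all PTU arrays and, of the controls, on replicate 1 alone.

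The genes best known for their response to thyroid hormone gave no test. The list of such genes has 7 pairs on the array, and 0 had 3 arrays above background. They are thibz.L (a bZIP factor induced directly by the hormone in Xenopus), fap.L, the metalloproteinases mmp9.1.S and mmp2.S, the receptor partner rxrb.L, and thdl17.L and thdl18.S, both named for their fall under thyroid hormone. Above background were thdl18.S on PTU array 2 (5111), thdl17.L on PTU array 2 (2763), and rxrb.L on PTU array 3 (6627) and control 2 (3915). On the remaining arrays these 3 pairs, and on all 6 arrays the other 4, were at background, so a change in them was not detectable at this signal.

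The pituitary and thyroid axis list, with prolactin (prl.1.L), its receptor (prlr.L) and both corticotropin-releasing hormone receptors (crhr1.2.S and crhr2.S), had 0 of 4 pairs above background on any of the 6 arrays. Nuclear receptors had 0 of 7 pairs tested and limb growth signals 0 of 3. The hindlimb factor pitx1.L was at background on all 6 arrays, so this marker of limb identity could not be read. Cartilage collagen col2a1.L was above background on PTU arrays 1 (1515) and 2 (5001) and on no control. The other of the 2 pairs on the cartilage and matrix list, fn1.S, was at background on all 6 arrays. Summed positive intensity of the 2 pairs was 0 on PTU array 3. The metallothionein mt4.L, a metal-binding protein, read 583, 2316 and 3355 in intensity with PTU, against 0, -1662 and 1742 in controls, and was above background on PTU arrays 2 and 3 alone.

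Of 12 pairs on the cell cycle list 4 were tested and were above background on all 6 arrays, 0 were called, and the median difference was 0.02. Cyclin ccnd1.L, which drives entry into S phase, read 12.86, 12.94 and 12.99 with PTU, against 13.21, 13.61 and 12.82 in controls. Its difference was -0.28 (95% interval -0.87 to 0.31), and it was -0.085 without control 2, -0.49 without control 3 and 0.29 with median centring. Its sister ccnd2.L read 13.66, 13.71 and 14.22 with PTU, against 13.91, 14.52 and 14.27 in controls, a difference of -0.37 (95% interval -0.81 to 0.06). It was -0.23 without control 2 and 0.10 with median centring. The groups overlapped for both cyclins, and in the fit of all arrays neither interval reached a 2-fold change.

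The replication clamp pcna.S read 14.71, 14.60 and 14.51 with PTU, against 14.22, 14.19 and 14.46 in controls. Its groups did not overlap, yet the difference was only 0.32 (95% interval -0.12 to 0.75, adjusted p = 0.444, limma). The mitotic kinase cdk1.S read 13.27, 12.68 and 13.15 with PTU, against 11.35, 12.38 and 13.37 in controls. Its difference was 0.67 (95% interval -0.33 to 1.67), 0.16 without control 1 and 1.17 without control 3. The wide interval came with a control SD of 1.01, against 0.31 with PTU. On the controls the duplicate spots of cdk1.S disagreed more than those of any other tested pair. Their mean gap was 2.27 on the controls, against 0.29 with PTU.

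**Figure D4:**
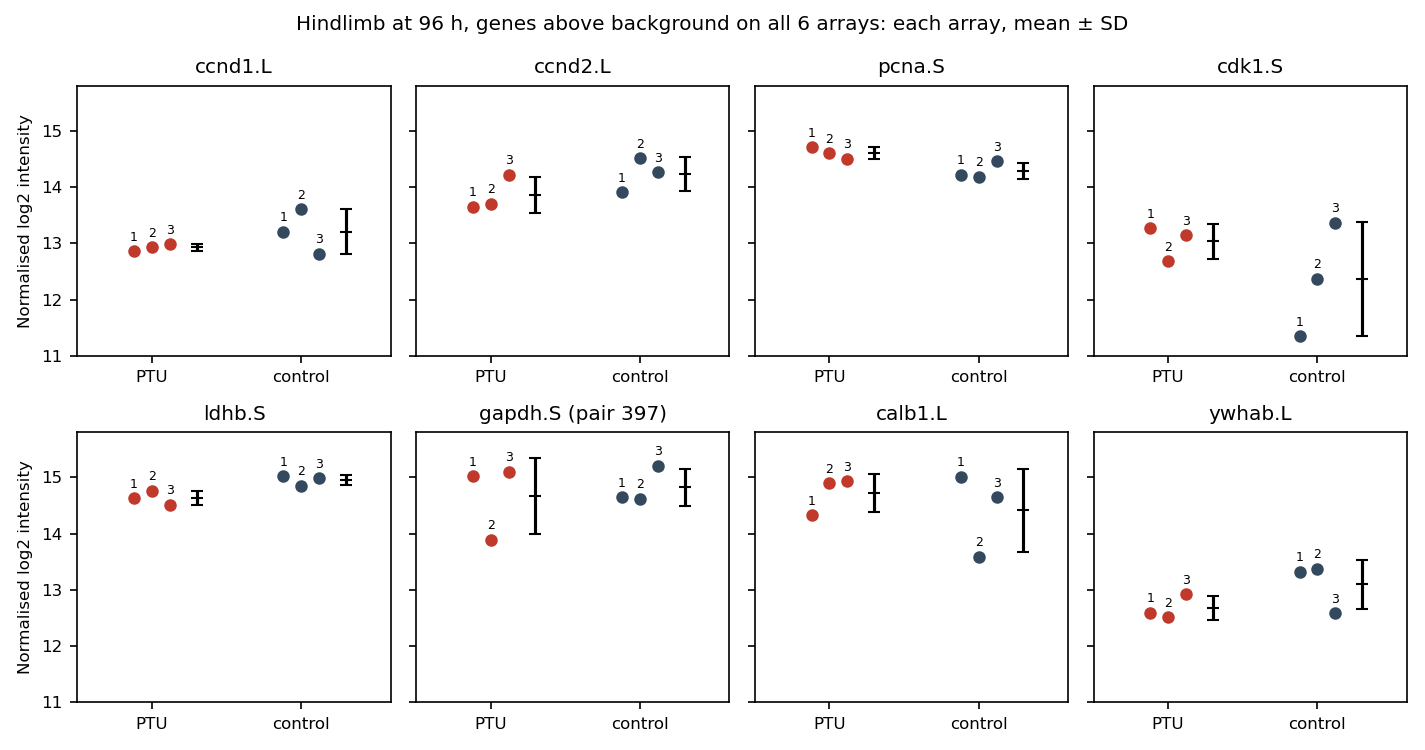
Normalised log2 intensity of 8 genes above background on all 6 arrays, with each array as a point labelled by its replicate number and the mean ± SD (n = 3) as a bar to its right. PTU stands left of control in each panel. In ldhb.S all 3 PTU values lie below all 3 controls and in pcna.S all 3 lie above them, while the groups overlap in the other 6 genes.

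Lactate dehydrogenase B (ldhb.S), which interconverts lactate and pyruvate, was lower in each PTU hindlimb after normalisation. It read 14.63, 14.77 and 14.52 with PTU, against 15.02, 14.85 and 14.99 in controls. The difference was -0.31 (SE 0.19, adjusted p = 0.335, limma). In deposited intensity the gap was wider, with 23397, 25724 and 28855 in PTU hindlimbs, against 43136, 127890 and 47435 in controls. Deposited intensities hold the array factors, which were larger on every control than on any PTU array, so this gap includes the scaling. Quantile normalization brings the few brightest pairs of all arrays to similar values, and with arrays centred on their bright pairs the difference was -1.12 (adjusted p = 0.00199, limma). With median centring it was -0.72 (adjusted p = 0.0401). The call for ldhb.S thus depended on the scaling, and its direction did not over the alternatives run.

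The second tested pair of the glycolysis list, gapdh.S, read 15.02, 13.89 and 15.10 with PTU, against 14.65, 14.62 and 15.21 in controls, a difference of -0.16 (SE 0.31) that was 0.036 without control 3 and 0.24 without PTU array 2. Nucleoside diphosphate kinase nme2.L, which balances nucleotide triphosphates, read 11.33, 11.13 and 11.54 with PTU, against 12.51, 11.64 and 11.62 in controls. Its difference was -0.59 (SE 0.42, adjusted p = 0.473, limma), with median centring it was 0.15, and the gap between the groups was small beside the spread of the controls.

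The translation list was tested in full, with 8 of 8 pairs, 0 called and a median difference of -0.10. The 5 pairs of the ribosomal protein gene rpl8.S differed by -0.22 to 0.21, and rpl35a.S by -0.10 (SE 0.46). These 6 pairs were dim, with PTU means of 11.19 to 11.42. The poly(A)-binding protein pabpc1.S read 12.77, 12.90 and 10.55 with PTU, against 9.94, 9.09 and 12.15 in controls. Replicate 3 ran against its group on both sides, and the difference of 1.68 (SE 0.74) had adjusted p = 0.159 (limma). The proteasome subunit psma2.L differed by 0.84 (SE 0.72), by 0.0094 without control 2 and by 1.33 without control 3.

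Single markers of other cell types showed no called difference. The globin hbd.S differed by -0.31 (SE 0.50), by 0.093 without control 1 and by -0.75 without control 2. The calcium-binding protein calb1.L, a neuronal marker, was bright in all 6 limbs and differed by 0.30 (SE 0.36), by 0.59 without control 1 and by -0.11 without control 2. It was the only readable member of the nerve list: mbp.S, ppp3ca.S and gap43.S were at background on all 6 arrays. The immune marker il1b.S was at background on all 6 arrays, and the array holds none of the epidermal markers listed. Of other tested genes, the muscle acetylcholine receptor subunit chrna1.L differed by 0.50 (SE 0.45), by 0.033 without control 1, by 0.33 without control 2 and by 0.083 with the floor at 1 noise SD. The adaptor protein ywhab.L differed by -0.42 (SE 0.52), and by 0.49 with median centring. The extracellular protein mamdc2.L differed by -0.08 (SE 0.47) and the nuclear receptor coactivator ncoa2.S by 0.03 (SE 0.70).

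At 24 h the same exposure gave 0 called pairs of 43 tested (0%) in the same limma fit, and 0 at an unadjusted p under 0.05. Of the pairs called at 96 h only pair 260 was among those tested. Too few arrays were above background at 24 h to test pair 88, pou2f1.S and tuba1, so this count does not cover them. The arrays of that time were alike in scaling, with factors of 1.19 to 1.23 with PTU, against 1.18 to 1.29 in controls. At 24 h, pair 260 read 13.39, 13.41 and 13.31 with PTU, against 13.59, 13.17 and 13.22 in controls, a difference of 0.04. These values showed none of the spread that the 96 h controls had.

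The difference between the effects at 96 h and at 24 h was tested over 65 pairs, with 0 called (0%) and 8 at an unadjusted p under 0.05 in limma. For pou2f1.S the 96 h difference exceeded that at 24 h by 2.00 (SE 0.67, adjusted p = 0.18), where none of the 6 arrays at 24 h was above background. For pair 88 it did so by 1.66 (SE 0.62, adjusted p = 0.225), for tuba1 by 1.70 (SE 0.82, adjusted p = 0.375) and for pair 260 by 1.52 (SE 0.61, adjusted p = 0.251). At 24 h tuba1 was likewise above background on none of the 6 arrays, and pair 88 on 1 PTU array and 1 control array. Of the 4 pairs, pou2f1.S passed the threshold in fits of only the arrays compared or only the inhibitor arrays. Pair 260 passed without control 3 at 96 h. In the fit of all hindlimb arrays none of the 4 was shown to respond differently at the 2 times.

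For cyclin ccnd2.L the signs at the 2 times differed. At 24 h it read 14.35, 14.54 and 14.52 with PTU, against 13.72, 14.15 and 14.29 in controls, so that all PTU values were above the controls. Its difference was 0.42 at 24 h and -0.37 at 96 h, where the sign depended on the scaling: it was 0.10 with median centring, and without control 2 it was 0.35 with median centring and 0.023 with bright centring. The change between the times was -0.79 (SE 0.30, adjusted p = 0.225, limma). Pair 36, named after its values were seen, changed by -2.30 (SE 0.76, adjusted p = 0.18), with at most 2 arrays of a group above background.

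**Figure D5:**
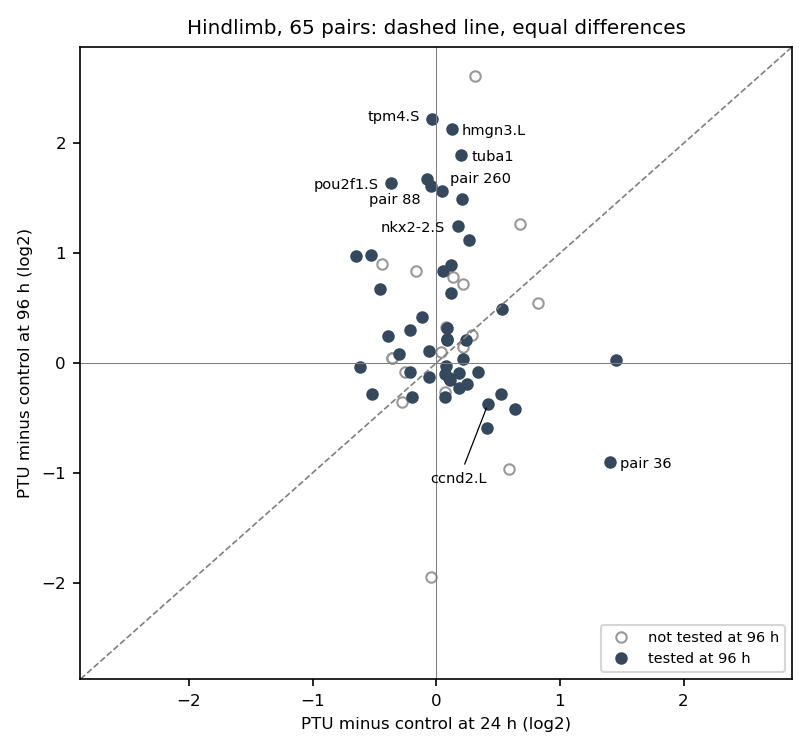
Each point is 1 of 65 hindlimb pairs, with the PTU minus control difference at 24 h on the horizontal axis and that at 96 h on the vertical axis (log2). Filled points were tested at 96 h. The pairs called at 96 h lie between -0.36 and 0.20 at 24 h and between 1.56 and 1.89 at 96 h, and the dashed line marks equal differences.

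MMI, a thionamide like PTU, and PER, which blocks the uptake of iodide, were given at other doses and share the 3 control arrays with PTU, so their differences are set beside those of PTU without a comparison. For PTU, MMI and PER, pair 88 differed from the controls by 1.62, 1.09 and 0.31, and tuba1 by 1.89, 1.13 and 1.02. In the same order pou2f1.S gave 1.64, 0.80 and 0.93, and pair 260 gave 1.56, 1.44 and 1.54. No MMI or PER array measured pou2f1.S above background, and its MMI mean rests on 2 arrays. Pair 88 was above background on 1 MMI array and 2 PER arrays, and tuba1 on 2 of each. Control 2 enters all of these values.

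For hmgn3.L the differences with PTU, MMI and PER were 2.13, 2.15 and 2.15, for tpm4.S 2.23, 2.74 and 0.82, and for nkx2-2.S 1.25, 1.37 and 0.41. All 3 MMI arrays measured hmgn3.L above background, as did all 3 PER arrays. The MMI arrays held 23 to 31 pairs above background and the PER arrays 39 to 56, with factors of 1.88 to 2.38 and 1.29 to 2.13. Desmin differed by 1.12, -0.24 and 0.22 for PTU, MMI and PER, and was above background on 0 MMI arrays and 2 PER arrays. The MMI mean of tpm4.S rests on 2 arrays.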

How the data were processed

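The authors deposited linear intensities, background subtracted, as the values below 0 show. The sources used here do not state the scanner, the background method or the reason for each array's scaling factor. Spots were passed through normexp (offset 50), put on the log2 scale, quantile normalized over 38 hindlimb arrays and averaged over duplicates in limma 3.58.1 (R 4.3.3, statmod 1.5.0). Noise was 1.4826 times the median size of an array's negative values. Variances were moderated over the 93 pairs above background on at least 3 hindlimb arrays. The named pairs were all called pairs, tested list members, the 10 other tested symbols with the smallest unadjusted p (5 existed), the hormone and axis lists, and pairs passing the submitters' fold rule. Pairs 36, 70, 124 and 391 and some untested list members were named after their values were seen. Older symbols were updated through gene identifiers for 233 pairs. Arrays, lists and tests were chosen with earlier results of these data known. The procedure was tested on simulated data and recovered the direction of known changes. The changed pairs were drawn from bright pairs alone, so this does not cover dim pairs such as tuba1 and pou2f1.S. A first simulation, with more changed pairs and unequal array scale, called unchanged pairs more often than the limit set for it. It was replaced by one with fewer changed pairs and equal array scale, and both gave all groups the same spread between animals. False calls above the nominal rate are thus possible where many bright pairs change or array scales are unequal. Array factors were unequal here. Precision is limited by the number of arrays. Sequences were not used here.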

Additional observations from a re-analysis of the deposited data

How the results depend on the processing

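Against 4 pairs called at 96 h, the count was 1 with only the arrays compared (pou2f1.S), 1 with quantile normalization over the 96 h arrays (pou2f1.S), 8 with median centring (7 higher and ldhb.S lower), 0 on the deposited scale, 0 of 401 without a filter, 0 with array weights, 0 with the replicate block and 1 by the submitters' fold rule (pair 88). It was 3 to 5 with inhibitor arrays only, bright centring (4 higher, ldhb.S lower), a floor, offsets of 20 and 100, a stricter filter and complete pairs. Leaving out 1 array gave 0 to 9. Added after seeing the data, it was 4 in scanner numbers, 5 with variances moderated over tested or over all pairs, and, without control 2, 2 with median centring (pou2f1.S and pair 88) and 2 with bright centring (pou2f1.S higher, ldhb.S lower). The cause of these changes was not tested. The median of tested pairs was 0.53 with median centring and -0.026 on the deposited scale, against 0.21.

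For the difference between 96 h and 24 h, 1 pair passed with only the arrays compared and 1 with inhibitor arrays (pou2f1.S in both), 1 with bright centring (ldhb.S, lower), and 0 to 2 when 1 array was left out, the 2 without the 96 h control 3 being nkx2-2.S and pair 260. Deviations of same-numbered arrays from their group means correlated at -0.04, -0.13 and -0.39, and those of other arrays between -0.30 and 0.33. With 3 arrays in each group these values cannot settle whether the replicate numbers pair the animals. With the replicate block 0 pairs passed at 96 h and 0 for the difference between times.

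Pairs of the 96 h comparison that passed no threshold changed sign in these settings. With median centring the values were 0.36, 0.27, 0.44 and 0.43 for rpl8.S (pairs 34, 119, 212 and 384), 0.39 for rpl35a.S, 0.32 for hbd.S, 0.29 for ccnd1.L, 0.10 for ccnd2.L, 0.49 for ywhab.L, 0.15 for nme2.L and 0.37 for mamdc2.L. With bright centring they were -0.12 for ncoa2.S, 0.042 and 0.031 for rpl8.S (pairs 212 and 384) and 0.10 for ywhab.L. Without control 2 and with median centring they were 0.28, 0.19, 0.34 and 0.38 for the same 4 rpl8.S pairs, -0.48 for ncoa2.S, 0.31 for rpl35a.S, -0.24 for calb1.L, 0.045 for hbd.S, 0.22 for ccnd1.L, 0.35 for ccnd2.L, 0.18 for ywhab.L, 0.061 for nme2.L and 0.48 for mamdc2.L. Without control 2 and with bright centring they were -0.81 for ncoa2.S, -0.57 for calb1.L, 0.0096 and 0.054 for rpl8.S (pairs 212 and 384), 0.023 for ccnd2.L and 0.15 for mamdc2.L. The value of ncoa2.S was -0.29 with array weights, -0.29 on the deposited scale and -0.80 with a floor, and rpl8.S (pair 15) was -0.037 on the deposited scale. Leaving out 1 array gave -0.11 to 0.59 for calb1.L, -0.37 to 0.24 for gapdh.S, -0.75 to 0.093 for hbd.S, -0.18 to 0.030 for mamdc2.L, -0.68 to 0.14 for ncoa2.S, -0.32 to 0.21 for rpl35a.S, and -0.39 to 0.27 and -0.29 to 0.046 for rpl8.S (pairs 212 and 34).

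Dim signal limits the comparison to 47 of 406 pairs, and 30 of these were at background on control 2. Over the alternatives run, pair 88, tuba1, pou2f1.S and pair 260 stayed higher with PTU wherever they were tested, and passed the threshold in 13 of 21, 12 of 22, 15 of 22 and 12 of 25 of them. The alternatives reuse the same arrays. Pair 88, tuba1 and pou2f1.S entered the main test through the PTU arrays alone and could not be tested once a PTU array was left out. Their constant direction and these counts are thus no separate support.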

Other observations

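By the submitters' fold rule, read on the log2 scale, 6 further pairs passed that lay at background on all 6 arrays and were not tested. The array holds 406 pairs, of which 47 were tested, and 1 of these 47 (2.13%) passed the same rule. A change in the 6 untested pairs was not detectable at this signal, so their values are listed without a conclusion. The values were lower with PTU for mta2.L, a subunit of a histone deacetylase complex (group means 9.49 with PTU and 10.62 in controls), for cntn1.L, a neural adhesion molecule (9.39 with PTU and 10.39 in controls), for htr7l.S (8.64 with PTU and 10.07 in controls), and for pairs 98 and 304. The value was higher with PTU for pair 388 (10.36 with PTU and 9.34 in controls). On the deposited scale mta2.L read -408, -421 and -252 with PTU, against -151, 2512 and 1127 in controls.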
